A study of Mus musculus with 4 samples.

Results

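The mRNAs described here encode the circadian clock of the liver and the transcription factors through which it acts on other genes. The members were chosen by gene symbol, and no cut on their measured values was applied. They were chosen with earlier results of these data known. Of the 10 genes named (Arntl, Bhlhe41, Ciart, Per1, Per2, Per3, Dbp, Tef, Nr1d1 and Nr1d2), 6 are listed among the 7000 genes of the table used. These are Arntl, Bhlhe41, Per1, Per2, Per3 and Ciart, the last under its older symbol Gm129. Dbp, Tef, Nr1d1 and Nr1d2 are not listed under any symbol or synonym tried.

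The samples were livers of male wild-type FVB/N mice, an inbred strain, that from weaning ate a selenium (Se)-deficient diet supplemented with 0 ppm Se (0 Se, 2 mice) or with 0.1 ppm Se as sodium selenite (0.1 Se, 2 mice) for 6 weeks. Ribosomal RNA was removed from total RNA before sequencing. The value used for each gene is the authors' average log2 CPM, the read count of the mRNA scaled to the total of its library, over the 4 libraries of both diets. The mean CPM given below is 2 to the power of that value. Whether logs were averaged or the average was logged is not stated in the sources used here. It has no error of its own, and no column of the table belongs to a single mouse.

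The depth of each library and the spread between mice are unknown here, so the order of 2 neighbouring genes cannot be set against replicate error. The levels also pool both diets, so that no difference between 0 Se and 0.1 Se mice was analysed here. Whether evening and morning genes of the clock differed between the diets, and so pointed to a difference in time of day, could therefore not be asked of these values. The hour at which the livers were taken is not stated in the sources used here.

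The clock is a loop of transcription and repression that runs in nearly every cell. ARNTL (also known as BMAL1) and CLOCK bind E-box sequences and switch on the Per and Cry genes, whose proteins return to the nucleus and repress them. In a second loop the nuclear receptors NR1D1 and NR1D2 repress Arntl through elements known as ROREs. DBP and TEF, with HLF, carry the rhythm to D-box sequences of output genes, and in liver such outputs include enzymes of bile acid, heme and glucose metabolism. Arntl mRNA is a morning gene in mouse liver and the Per mRNAs are evening genes, so their levels in one liver depend on the hour.

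The sequences through which these loops act were looked up in the promoter windows of RefSeq (GRCm38.p6), each from 250 bases before to 50 bases after an annotated start. Windows were found for 9 of the 10 genes, 12 windows in all, and there was none for Per2. The motifs searched on both strands were the E-box CACGTG, the E'-box CACGTT, the D-box TTATGTAA, the RORE core TAGGTCA and the cAMP response element (CRE) TGACGTCA, which do not overlap each other in the matches below. All 11 matches are printed here, with the motif in capitals, because these are the letters on which the loops described above are known to act.

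Ciart, chr3:95882329-95882354, minus strand, 116 bases upstream of the start: catctagagtCACGTGttgccggtaa
Ciart, chr3:95882271-95882296, minus strand, 58 bases upstream: cagggggaggCACGTGcagaaccgca
Ciart, chr3:95882257-95882282, minus strand, 44 bases upstream: tgcagaaccgCACGTGtctgggaggg
Bhlhe41, chr6:145865558-145865583, minus strand, 153 bases upstream: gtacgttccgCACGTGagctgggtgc
Per1, chr11:69098773-69098798, plus strand, 166 bases upstream of its first start: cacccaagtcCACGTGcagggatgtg
Per3, chr4:151044853-151044880, minus strand, 205 bases upstream: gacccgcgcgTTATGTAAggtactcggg
Per3, chr4:151044806-151044833, minus strand, 158 bases upstream: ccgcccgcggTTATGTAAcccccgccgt
Tef, chr15:81802536-81802561, plus strand, 127 bases upstream of its first start: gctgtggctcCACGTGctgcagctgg
Tef, chr15:81811266-81811291, plus strand, 138 bases upstream of its second start: cctggcccagCACGTGtctacatcgt
Nr1d1, chr11:98775390-98775415, minus strand, 28 bases upstream, with the E'-box read on the opposite strand: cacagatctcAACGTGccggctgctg
Arntl, chr7:113207531-113207557, plus strand, 30 bases downstream of its second start: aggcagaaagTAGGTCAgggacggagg

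Ciart held 3 E-boxes in its window, the nearest pair 14 bases apart, while Bhlhe41 and Per1 held 1 each. Both windows of Tef also held 1 E-box, so that 4 of the 9 genes and 5 of the 12 windows had one. Of all 32851 RefSeq promoter windows, 7.15% held an E-box. Per3 was the only one of the 9 genes with a D-box, in 2 copies 47 bases apart, and 0.938% of all windows had one. The RORE core was found in 1 window of Arntl and in 2.61% of all windows. Nr1d1 held 1 E'-box, a motif found in 4.68% of all windows. No CRE was found in the 12 windows, against 1.79% of all windows, and no motif searched was found in the windows of Dbp and Nr1d2. A match is a description of the letters and not evidence of binding, and a missing match says only that these letters are not in the window. The diagram of promoter windows shows where the matches lie.

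**Figure D1:**
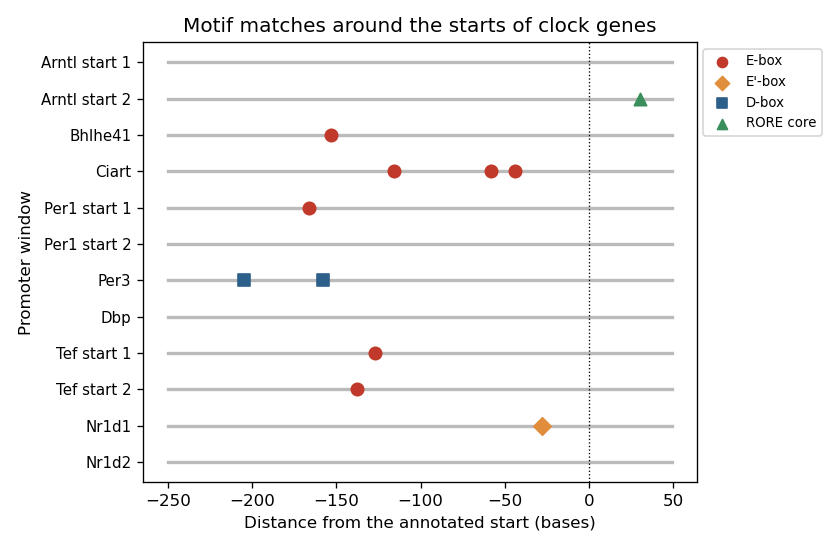
Each grey line is 1 promoter window of a clock gene, drawn by distance in bases from the annotated start (dotted line), and each symbol marks the first base of a motif match. The 3 E-boxes of Ciart lie within 116 bases upstream of its start, and the only match downstream of a start is the RORE core of Arntl.

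The level of an mRNA is given per length below, as mean CPM divided by the length of the mRNA in kilobases, since a longer mRNA gives more reads at the same number of copies. On this scale the order was Ciart, Per2, Per3, Per1, Arntl and Bhlhe41. The levels ran from 8.14 CPM per kilobase for Ciart to 0.829 for Bhlhe41, a 9.82-fold range. The median of the 7000 listed genes was 6.19 CPM per kilobase, and Ciart was the only listed member above it. The alternatives tried did not keep this. Among all listed genes Ciart was at percentile 57.3 per kilobase, 48.7 with the length of its longest annotated mRNA and 37.3 by CPM, and 46.4 per kilobase among genes of at least 5 CPM. By CPM it was Per2 and Per3, at 65.4 and 64.2, that lay above the median.

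Arntl, the activator of the loop, lies on chromosome 7 of NCBIM37 (the mm9 assembly) from 120350979 to 120457636, on the plus strand. Its mRNA is listed with 2908 bases, and the nearest annotated mRNA has 2904 bases in 20 exons. Its mean level was 3.26 CPM, or 1.12 CPM per kilobase, a percentile of 14.0 among the listed genes. CLOCK, the partner with which ARNTL binds DNA, is listed too. The Clock mRNA was at 10.3 CPM per kilobase, 9.22-fold above Arntl per length in these pooled libraries. By CPM Clock was 23.7-fold above Arntl.

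The 3 Period genes encode the repressors that pair with the cryptochromes. Per2, on chromosome 1 from 93312561 to 93355907 on the minus strand, had a mean level of 33.2 CPM, or 5.69 CPM per kilobase of its 5837-base mRNA of 23 exons. Per3, on chromosome 4 from 150377761 to 150418774 on the minus strand, was at 31.3 CPM, or 5.26 CPM per kilobase of 5953 bases. The levels of Per2 and Per3 differed by 1.08-fold per length, and no error is at hand to say whether that is more than the spread between mice. Per1, on chromosome 11 from 68908719 to 68923462 on the plus strand, was at 14.6 CPM, or 3.13 CPM per kilobase of 4660 bases. Per1 was the least abundant of the 3, with Per2 1.81-fold and Per3 1.68-fold above it per length. Each Period mRNA stood above Arntl, Per1 by 2.80-fold and Per2 by 5.08-fold per length. Because these genes peak at different hours in mouse liver, the ratios hold for the unknown hours at which these mice were killed.

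Ciart, also known as Chrono, encodes a further repressor of the ARNTL and CLOCK dimer. It lies on chromosome 3 from 95682426 to 95686174 on the minus strand, and its listed mRNA has 1395 bases. Its mean level was 11.4 CPM, or 8.14 CPM per kilobase, 1.43-fold above Per2 per length although its CPM was 0.342 of that of Per2. The position of Ciart at the head of the order thus rests on its short mRNA. The longest annotated Ciart mRNA has 1939 bases, and divided by that length the level was 5.86 CPM per kilobase, above Per2 at 5.69 and below the median of the listed genes. The span of C920021L13Rik, annotated on the opposite strand, overlaps an exon of Ciart. The library kit keeps the strand, but the sources used here do not state whether the counting used it, so reads from such an overlap are uncertain.

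Bhlhe41, also known as DEC2, encodes a basic helix-loop-helix repressor that competes for E-boxes. It lies on chromosome 6 from 145806763 to 145814078 on the minus strand. Its mean level of 5.08 CPM was above that of Arntl at 3.26 CPM, but per kilobase of its 6124-base mRNA it was below, at 0.829 against 1.12. These 2 genes changed places with the scale, as the plot of both scales shows. Bhlhe40, its paralog and the other DEC repressor, was at 25.3 CPM per kilobase, 30.5-fold above Bhlhe41 per length. By CPM Bhlhe40 was 15.5-fold above Bhlhe41.

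**Figure D2:**
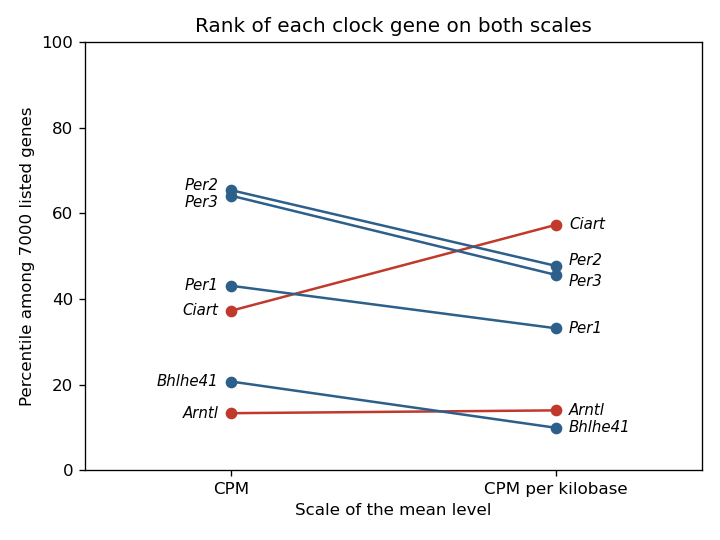
The percentile of each listed clock gene among the 7000 listed genes (vertical axis) is plotted by mean CPM on the left and by mean CPM per kilobase on the right, 1 line for each gene, red where it is higher per kilobase. Ciart rises from 37.3 to 57.3, Per2 and Per3 go down from 65.4 and 64.2 to 47.7 and 45.6, and Arntl and Bhlhe41 cross.

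None of the 6 listed mRNAs shared a stretch of 50 bases, the number of sequencing cycles, with an annotated coding mRNA of another gene on either strand. The authors kept only reads that aligned to 1 place, and near-matches with up to 2 mismatches were not searched. The listed lengths lay within 46 bases of an annotated mRNA for all 6.

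Dbp and Tef, the output factors that bind D-boxes, and Nr1d1 and Nr1d2, the receptors that repress Arntl, have no level here. Their absence does not show a low level. Whether the listed genes were selected by the authors' p-values for the diets was not tested. The table holds only part of a liver transcriptome, since 4 of 6 hepatocyte markers, Alb, Ttr, Cps1 and Hnf4a, are not listed either. The other 2 were at 7619 CPM per kilobase for Apoa1, the main protein of high-density lipoprotein, and 1230 for Serpina1a, an inhibitor of proteases made by hepatocytes. Markers of other liver cells were also listed, among them all 5 of Kupffer cells (5.15 to 74.8 CPM per kilobase) and all 3 of stellate cells (5.74 to 98.3), along with 2 of 3 of sinusoidal endothelium (16.4 and 76.9). Of 3 lymphocyte markers, 1 was listed, Ptprc at 3.93, and none of 3 cholangiocyte or 2 erythroid markers was. The libraries thus held RNA of several liver cell types, and which cells the clock mRNAs came from was not tested.

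The other genes of the pathway were taken from 4 lists of 30 genes, of which 18 are listed. Their levels ran from 0.468 CPM per kilobase for Timeless to 799 for Pck1, with a median of 9.89 against 4.20 for the 6 members, and 16 of the 18 lay above the median of all listed genes. As the table holds only part of a liver transcriptome, and how its genes were selected was not tested, these medians describe the listed genes only.

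Of 8 further genes of the core and its loops, 4 are listed, and Npas2, Cry1, Rora and Rorb are not. Bhlhe40, given above, stood highest, followed by Clock. Cry2, a cryptochrome that pairs with the Period proteins, was at 6.92 CPM per kilobase, 1.22-fold above Per2 per length. By CPM it was below, at 0.834 of the level of Per2. Timeless was the lowest of the clock and rhythmic genes listed. It is counted with the core only by its list, and its role in the clock was not tested.

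Hlf and Nfil3 are both listed. Hlf, the third member of the family of Dbp and Tef, was at 6.48 CPM per kilobase, and Nfil3, which represses through the same D-boxes, was at 6.79. The activator and the repressor of the D-box that are listed thus had nearly the same pooled level per length, with no error to compare them by. By CPM they were apart, with Hlf at 36.7 and Nfil3 at 13.5.

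Of 6 genes for enzymes that modify clock proteins, Fbxw11, a subunit of a ubiquitin ligase that acts on the Period proteins, was at 9.47 CPM per kilobase. Csnk1e, a casein kinase that phosphorylates them, was at 1.52. The other 4 (Csnk1d, Fbxl21, Btrc and Usp2) are not listed.

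Of 14 further liver genes known for daily rhythms, 10 are listed, 7 of them above Ciart per length, and Wee1, Por, Elovl3 and Gys2 are not. Pck1, an enzyme of glucose synthesis, Alas1, the first enzyme of heme synthesis, and Upp2, a uridine phosphorylase, stood highest at 799, 243 and 224 CPM per kilobase. Lpin1, an enzyme of triglyceride synthesis, was at 53.8, and Nampt, an enzyme of NAD synthesis, at 39.2. Rgs16, a regulator of G protein signalling, was at 34.2, and Cyp7a1, the rate-limiting enzyme of bile acid synthesis, was at 30.9. Noct (listed as Ccrn4l), a clock-controlled phosphatase, was at 6.22, just above Per2 per length. Avpr1a, a vasopressin receptor, and Tfrc, the transferrin receptor, were at 8.04 and 8.01, just below Ciart per length. The dot plot of levels sets these genes beside the members.

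**Figure D3:**
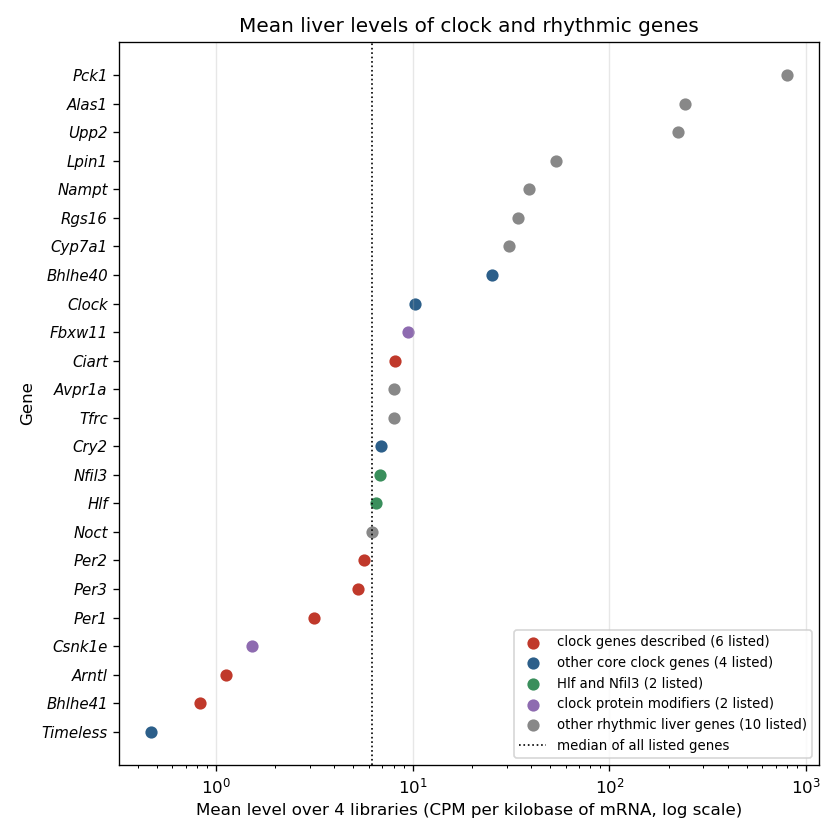
Each dot is the authors' mean level of 1 listed gene over the 4 libraries, in CPM per kilobase of mRNA on a log axis, coloured by gene list, with the median of all listed genes as a dotted line. Of the 6 clock genes described (red), Ciart lies right of the line at 8.14 and Arntl and Bhlhe41 lie farthest left, at 1.12 and 0.829; no error bars are drawn because the table pools the libraries.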

How the data were processed

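Liver RNA libraries were prepared by the authors with a stranded total RNA kit after removal of ribosomal RNA. Per the labels and the study's methods, reads were aligned with Bowtie to RefSeq mRNAs (mm9, the longest isoform of each gene), keeping unique alignments with up to 2 mismatches, and counts were compared with edgeR for genes above 1 CPM in at least 3 samples. No versions are stated in the sources used here. The deposited table has 7000 genes with mRNA length, average log2 CPM, and the authors' fold changes, p-values and FDR for the diets. These last 3 columns hold the authors' own comparison and were not used, so the planned count test between diets was not run. The average log2 CPM, made by the authors with edgeR and used as deposited, was taken as a power of 2, divided by length in kilobases and ranked over the listed genes. The back-calculation was tested on simulated data. Genes named are all members and the companions, listed or not, and cell type markers were taken from fixed lists, of which some genes are not reported here. Members and lists were chosen with earlier results of these data known. Gene models were those of GENCODE vM1 (NCBIM37, which equals mm9). Promoter windows come from RefSeq on GRCm38.p6, and coordinates of the 2 assemblies were not mixed. Python 3.11.15, numpy 2.4.6, pandas 2.3.3 and matplotlib 3.10.9 were used.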

Additional observations from a re-analysis of the deposited data

How the results depend on the processing

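The median percentile of the 6 listed members among all listed genes was 39.4 per kilobase of the listed mRNA length. It was 40.2 with CPM not divided by length, 39.3 with the length of the longest annotated mRNA (for the members only), and 31.9 among listed genes with a mean of at least 5 CPM, where Arntl dropped out. Single genes moved more. Bhlhe41 was at 9.89 per kilobase, 20.7 by CPM and 0.611 under the minimum of 5 CPM, and Ciart was at 57.3, 37.3 and 46.4, and at 48.7 with its longest annotated mRNA. The count of 6 listed members was the same with any synonym of the gene table. For the comparison of diets, another count model, a filter on the counts of single mice and the omission of each mouse were not run. The table has 0 columns for single mice. No paired analysis was possible because no value belongs to a single mouse and the mouse numbers of the diets do not overlap.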
